A study of Rattus norvegicus with 48 samples.

Results

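The genes described are Cdkn1a, Gadd45a, Gadd45g, Jun and Hspb1, 5 stress and growth arrest genes measured in rat kidney. Each had 1 probe set whose only gene symbol was that gene, which makes 5 probe sets of 8797 on the arrays and 5 of 7589 named genes. They were picked because of values in these same arrays. Cdkn1a, Gadd45a, Jun and Hspb1 were picked for being higher at day 10 than at day 0 averaged over the strains, and Gadd45g for being lower at day 10 in the LF strain. Values at day 10 are therefore a description here, with no test. Tests are given for day 7, which shares its day 0 arrays with the comparison behind that choice, and for differences between strains. Sharing them favours day 7 differences in the chosen directions, so the day 7 p-values are not independent of the choice.

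Kidneys came from male rats, 12 weeks old in the sample labels, of 4 strains named F, FL, L and LF in the labels, which leave the letters unexplained. In each strain, rats were gavaged with indole-3-carbinol at a daily dose of 100 mg per kg for 7 days (day 7) or for 10 days (day 10), or with the vegetable oil carrier alone (day 0). Indole-3-carbinol, found in cabbage and its relatives, forms products in the stomach that bind the aryl hydrocarbon receptor. All groups were handled by gavage and kept on the same chow. Each of the 12 groups had 4 arrays, numbered 1 to 4 in the labels, 48 in all. The treatment protocol gives 8 rats per group. Whether RNA of several rats was pooled on an array is not stated, so p-values measure the spread between these arrays, part of which may be technical. Values are log2 signals of RNA from whole kidney, where fewer cells of a type and less RNA per cell cannot be told apart.

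p53 is a transcription factor that accumulates in damaged cells, and Cdkn1a is its best known target. The Cdkn1a protein, p21, blocks the cyclin-dependent kinases that drive cells through the cycle. The Gadd45 genes encode small proteins that bind p21, Pcna and the kinase Map3k4 and are switched on by DNA damage or growth arrest. Gadd45a is a direct p53 target, whereas Gadd45b and Gadd45g respond mainly to cytokines and other stress. Jun is a subunit of AP-1, the immediate early transcription factor activated by the stress kinase Mapk8. Hspb1 is a small heat shock protein that holds unfolded proteins and stabilises actin. In kidney, Cdkn1a and Hspb1 are known to rise in injured tubules.

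The promoter windows, 250 bases before to 50 bases after the annotated start, are shown because elements known from these pathways were searched for in them. RefSeq sequences of build GRCr8 were matched for 4 of the 5 genes. They lie at chr20:7150682-7150981 on the plus strand for Cdkn1a and, on the minus strand, at chr4:97486750-97487049 for Gadd45a, chr17:13530302-13530601 for Gadd45g and chr12:26432252-26432551 for Hspb1. They are written 5′ to 3′ in the gene's direction, and capitals mark the motif matches listed after them.
Cdkn1a: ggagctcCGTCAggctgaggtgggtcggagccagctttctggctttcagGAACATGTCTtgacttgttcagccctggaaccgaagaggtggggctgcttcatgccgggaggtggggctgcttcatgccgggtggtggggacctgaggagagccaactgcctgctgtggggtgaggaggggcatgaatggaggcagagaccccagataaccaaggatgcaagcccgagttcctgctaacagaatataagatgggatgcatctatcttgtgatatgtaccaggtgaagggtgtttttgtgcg
Gadd45a: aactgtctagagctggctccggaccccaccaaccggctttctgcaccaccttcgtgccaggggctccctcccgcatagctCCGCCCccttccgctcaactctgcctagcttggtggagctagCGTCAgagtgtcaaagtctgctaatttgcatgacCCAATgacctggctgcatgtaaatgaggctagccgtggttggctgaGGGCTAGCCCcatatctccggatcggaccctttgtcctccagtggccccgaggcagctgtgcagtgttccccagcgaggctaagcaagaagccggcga
Gadd45g: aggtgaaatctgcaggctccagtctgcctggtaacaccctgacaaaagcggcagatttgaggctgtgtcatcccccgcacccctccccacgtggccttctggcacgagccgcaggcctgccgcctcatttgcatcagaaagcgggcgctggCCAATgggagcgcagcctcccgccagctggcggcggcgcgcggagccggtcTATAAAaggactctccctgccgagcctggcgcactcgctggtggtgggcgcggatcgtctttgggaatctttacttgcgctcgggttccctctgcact
Hspb1: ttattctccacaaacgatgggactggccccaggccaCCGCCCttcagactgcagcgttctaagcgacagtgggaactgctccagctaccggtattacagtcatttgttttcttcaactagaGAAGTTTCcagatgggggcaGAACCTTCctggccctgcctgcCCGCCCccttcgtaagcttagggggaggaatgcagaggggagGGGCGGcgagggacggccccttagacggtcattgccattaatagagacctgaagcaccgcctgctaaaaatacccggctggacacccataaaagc

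A single unit of the p53 response element, which in full is a pair of such units, was searched by its consensus on both strands and stood at bases -201 to -192 of Cdkn1a and at -48 to -39 of Gadd45a, counted from the annotated start. Of 33469 rat promoter windows of the same length, 7.98% held at least 1 match to it. Hspb1 held a pair of heat shock elements (GAANNTTC, 8.59% of windows), at -129 to -122 and at -109 to -102, and GC boxes (GGGCGG, 33.06%) at -214 to -209, -87 to -82 and -45 to -40. Gadd45g held a TATA box (TATAAA, 14.22%) at -48 to -43 and a CCAAT box (CCAAT, 37.49%) at -99 to -95. Gadd45a held a CCAAT box at -94 to -90 and a GC box at -170 to -165. The short form of the cyclic AMP element (TGACG, 21.2%) was matched at -243 to -239 of Cdkn1a and at -128 to -124 of Gadd45a, and its letters lie within those of the full element (TGACGTCA, 1.83%). The AP-1 element (TGANTCA, 7.33%) and the full cyclic AMP element had no match in these 4 windows. The RefSeq start used for Cdkn1a lies inside the annotated gene, so that its window covers bases of the gene itself. A match describes the letters only.

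Cdkn1a rose at day 7 and was the member with the largest difference at day 10. Averaged over the strains it was higher by 0.61 ± 0.15 on the log2 scale at day 7 (standard error of the fit, 1.53-fold, 16 arrays per day, limma adjusted p = 0.00779), and by 0.87 ± 0.15 at day 10. Gadd45a rose by 0.19 ± 0.055 at day 7 (adjusted p = 0.0357) and Hspb1 by 0.26 ± 0.067 (adjusted p = 0.0135), while Gadd45g fell by 0.76 ± 0.16 (adjusted p = 0.00223). Jun was 0.11 ± 0.087 higher at day 7 (95% interval -0.063 to 0.29, adjusted p = 0.481). Of the 5 genes, 3 were thus called higher and 1 lower at an adjusted p under 0.05, where 1.19% of all probe sets were called higher and 3.75% lower. The choice of the genes used the same day 0 arrays and favours such calls, so this is no test of the 5 genes as a set. Those background shares come from 105 higher and 330 lower probe sets, so 24.1% of the calls were rises. Subtracting array medians made that 45.2%, a second quantile normalization 42.1% and the array spread as a covariate 54.4%, while all 4 member calls and their directions were the same in these fits. At day 10 the differences were 0.24 ± 0.055 for Gadd45a, 0.37 ± 0.087 for Jun, 0.36 ± 0.067 for Hspb1 and -0.53 ± 0.16 for Gadd45g. The background at day 10 was 1.26% of probe sets called higher and 1.15% lower.

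The rise of Gadd45a at day 7 was the smallest of the called changes and the least stable. Its adjusted p lay between 0.0522 and 0.0632 without any 1 of 9 arrays, which were FL day 0 replicates 2 and 4, LF day 0 replicate 2, F day 0 replicates 1 and 4, L day 0 replicate 1, FL day 7 replicate 1, LF day 7 replicate 1 and L day 7 replicate 4. No single array ended a call of Cdkn1a, Gadd45g or Hspb1 averaged over the strains. Leaving out all 12 arrays of a replicate number did so for Cdkn1a without number 1 (adjusted p = 0.085) or 2 (0.118), for Gadd45g without number 2 (0.102), for Hspb1 without number 1 (0.0538), 3 (0.0761) or 4 (0.164), and for Gadd45a without number 1 (0.211), 2 (0.212) or 4 (0.122). These fits have 36 arrays.

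**Figure D1:**
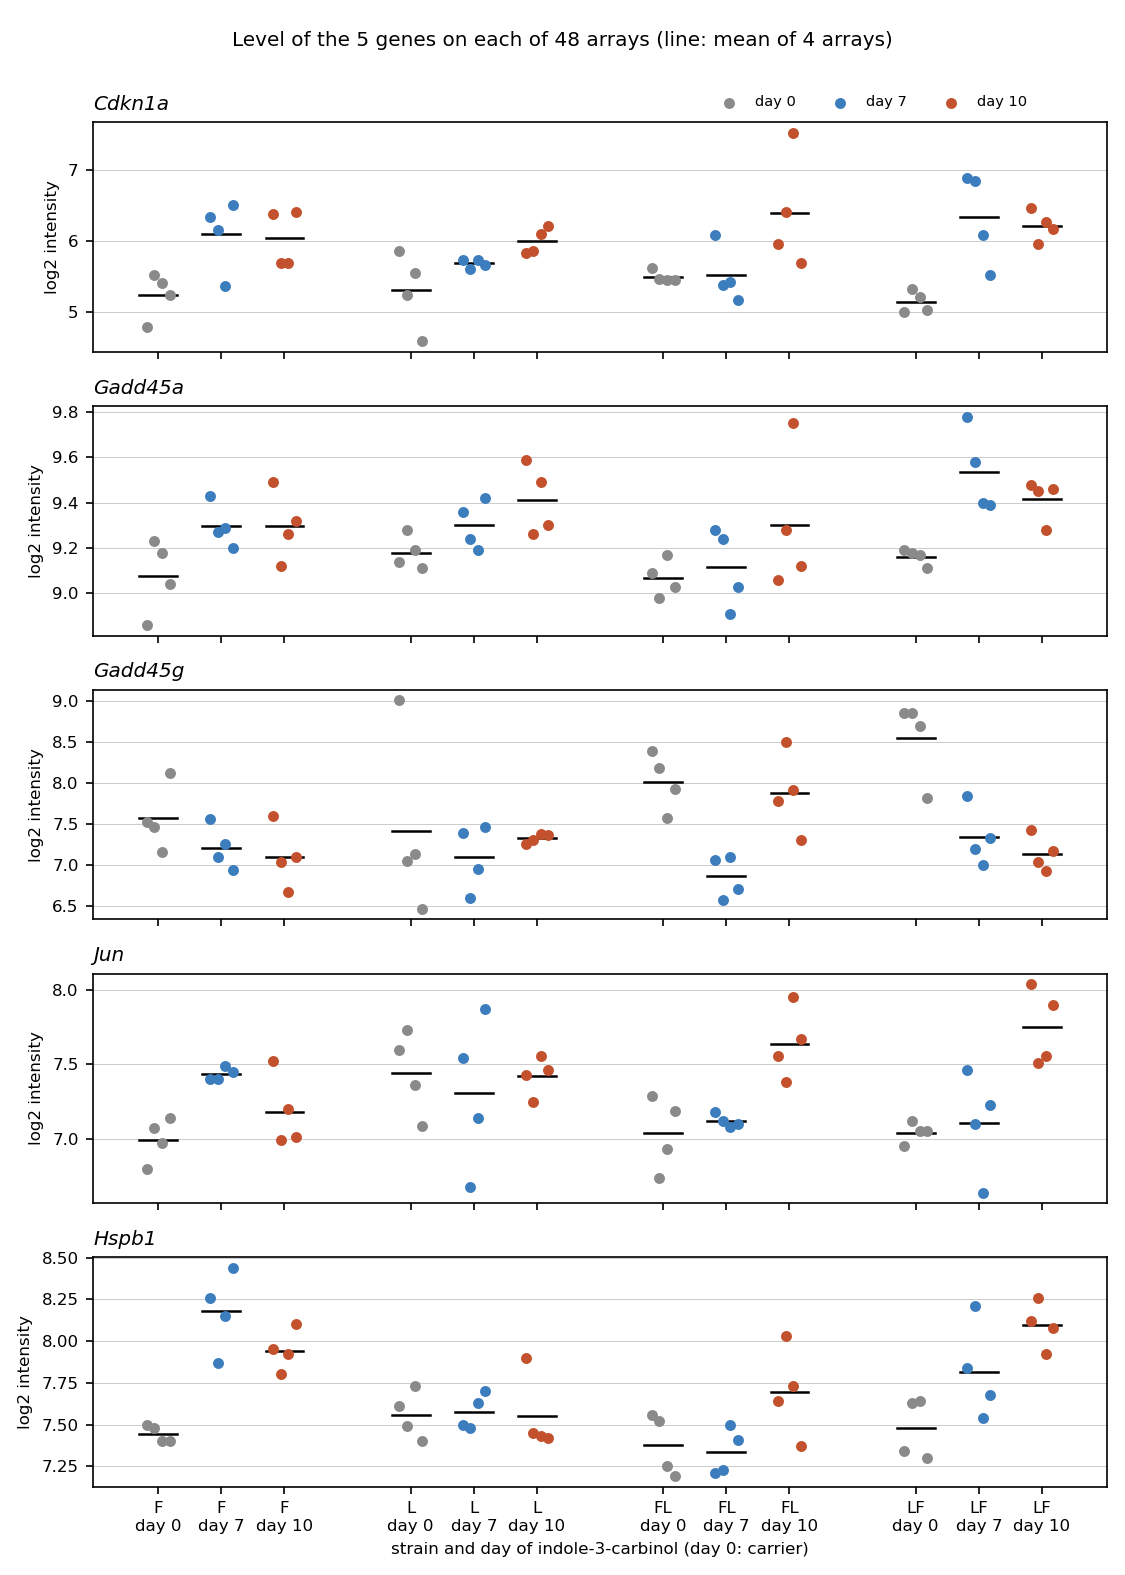
Level of each gene (log2 signal, y axis, its own range per panel) on the 48 arrays, grouped on the x axis by strain and by day of indole-3-carbinol, with day 0 as the carrier; points are arrays in the order of their replicate number and lines are means of 4 arrays. Cdkn1a is high on FL day 10 replicate 3 (7.52), Gadd45g is high on L day 0 replicate 1 (9.01), and Hspb1 at day 7 stands apart from day 0 in F.

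The values of Cdkn1a, array by array, were as follows. In F kidneys Cdkn1a lay at 4.79, 5.52, 5.41 and 5.24 at day 0, at 6.34, 6.15, 5.36 and 6.51 at day 7 and at 6.38, 5.68, 5.69 and 6.40 at day 10. At day 10 all 4 F arrays were above their day 0 arrays, and at day 7 replicate 3 fell within the day 0 range. In LF kidneys it lay at 5.0, 5.32, 5.20 and 5.02 at day 0, at 6.89, 6.84, 6.08 and 5.51 at day 7 and at 6.46, 5.95, 6.26 and 6.17 at day 10. Both treated groups of LF lay wholly above the carrier group. In L kidneys it lay at 5.86, 5.24, 5.54 and 4.58 at day 0, at 5.73, 5.60, 5.73 and 5.66 at day 7 and at 5.82, 5.86, 6.10 and 6.21 at day 10. The L groups overlapped, with day 0 reaching from 4.58 to 5.86. In FL kidneys it lay at 5.61, 5.46, 5.44 and 5.45 at day 0, at 6.08, 5.38, 5.42 and 5.17 at day 7 and at 5.95, 6.40, 7.52 and 5.68 at day 10. At day 7, FL replicate 1 lay above the day 0 range and the 3 others below it, and all 4 FL arrays at day 10 were above day 0.

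At day 7 Cdkn1a passed the test in LF, with 1.2 ± 0.29 (2.29-fold, adjusted p = 0.0178), and its estimates were 0.85 ± 0.29 in F (adjusted p = 0.288), 0.38 ± 0.29 in L (0.994) and 0.02 ± 0.29 in FL (0.993). Of all probe sets, 2.26% were called in LF at day 7, 0.671% in F, 0.0114% in L and 0.159% in FL. The LF call was lost without LF day 0 replicate 1 (adjusted p = 0.0636), LF day 7 replicate 1 (0.0622) or LF day 7 replicate 2 (0.0772). Leaving out all arrays of replicate number 1 (adjusted p = 0.141) or 2 (0.344) also ended it. The day 7 responses of the strains did not differ past the threshold (F test over the 4 strains, F = 3.16, unadjusted p = 0.035, adjusted p = 0.901). The widest gap, FL against LF, was -1.17 ± 0.41 (95% interval -2.0 to -0.34, adjusted p = 0.59). At day 10 the differences were 0.80 in F, 0.69 in L, 0.90 in FL (0.52 without FL day 10 replicate 3) and 1.08 in LF, each ± 0.29, with no test passed for a difference between them (F = 0.31, adjusted p = 0.998). The FL day 10 mean of 6.39 ± 0.81 (SD, n = 4) holds the highest Cdkn1a array of the study. In the order of the 12 group means, the 3 other day 10 groups and the day 7 groups of LF and F followed it, each within its neighbour's spread. The L day 10 group (6.0 ± 0.19) then stood apart from L day 7 (5.68 ± 0.06), below which FL day 7 and the 4 carrier groups followed, down to LF at 5.14 ± 0.15.

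Gadd45a, which arrests cells before mitosis, had the smallest differences from day 0 among the called genes. In F kidneys Gadd45a lay at 8.86, 9.23, 9.18 and 9.04 at day 0, at 9.43, 9.27, 9.29 and 9.20 at day 7 and at 9.49, 9.12, 9.26 and 9.32 at day 10. The F groups overlapped at both days. In LF kidneys it lay at 9.19, 9.18, 9.17 and 9.11 at day 0, at 9.78, 9.58, 9.40 and 9.39 at day 7 and at 9.48, 9.45, 9.28 and 9.46 at day 10. All 8 treated LF arrays were above the 4 carrier arrays. In L kidneys it lay at 9.14, 9.28, 9.19 and 9.11 at day 0, at 9.36, 9.24, 9.19 and 9.42 at day 7 and at 9.59, 9.26, 9.49 and 9.30 at day 10. In FL kidneys it lay at 9.09, 8.98, 9.17 and 9.03 at day 0, at 9.28, 9.24, 8.91 and 9.03 at day 7 and at 9.06, 9.28, 9.75 and 9.12 at day 10. In L and FL the days overlapped, and FL day 10 replicate 3, the array with the highest Cdkn1a, was also the highest FL array for Gadd45a.

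No strain alone passed the test for Gadd45a at day 7. LF came nearest with 0.38 ± 0.11 (adjusted p = 0.0587). It passed with the replicate number as a block (adjusted p = 0.0313), with array medians subtracted (0.50, adjusted p = 0.00353), after a second quantile normalization (0.52, 0.00308), with the array spread as a covariate (0.46, 0.00896), with array weights (0.0495) and without the dimmest probe sets (0.0459), but not with an intensity trend and robust prior. It also passed without FL day 10 replicate 1 (0.049), 3 (0.0255) or 4 (0.0454). F had 0.22 ± 0.11, L 0.12 ± 0.11 and FL 0.05 ± 0.11 (adjusted p of 0.736 to 0.994). At day 10 the differences were 0.22 in F, 0.23 in L, 0.24 in FL and 0.26 in LF, each ± 0.11. The FL value was 0.086 without FL day 10 replicate 3. The largest pair difference in that response was 0.035 ± 0.16 (LF against F, 95% interval -0.28 to 0.35).

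**Figure D2:**
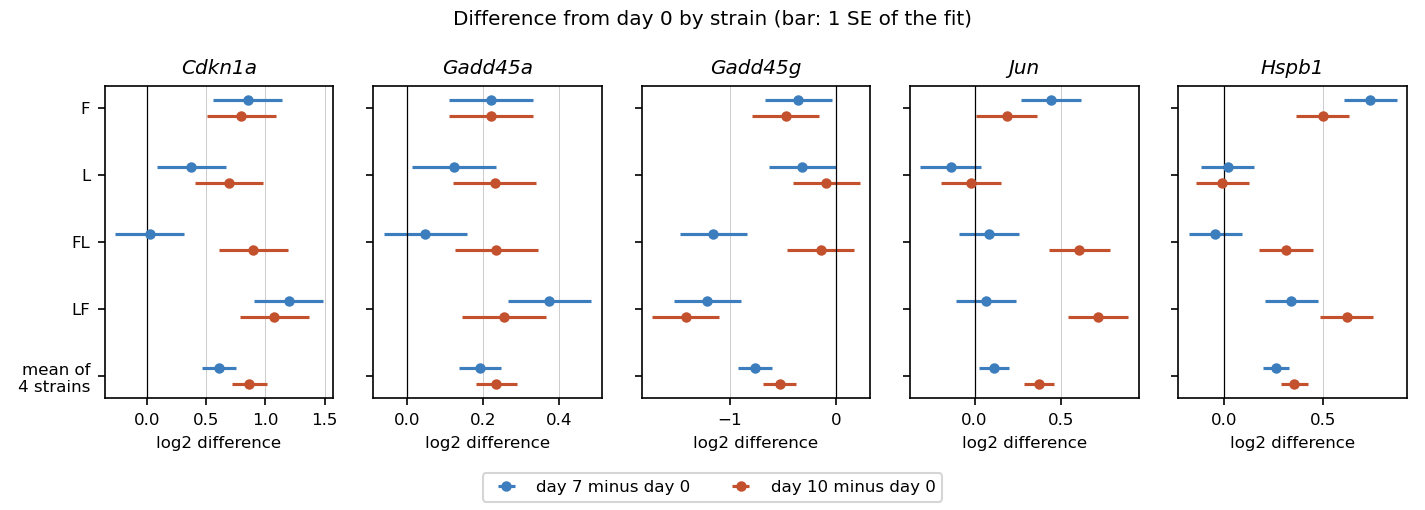
Log2 difference from day 0 (x axis, its own range per panel) at day 7 and at day 10 for every strain and for the average of the 4 strains (y axis); points are estimates of the fit and bars 1 standard error. Hspb1 at day 7 reaches 0.74 in F and -0.04 in FL, and Gadd45g at day 10 reaches -1.42 in LF and -0.09 in L.

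Gadd45g, the family member known for its response to cytokines, moved the opposite way. In LF kidneys Gadd45g lay at 8.86, 8.85, 8.69 and 7.82 at day 0, at 7.84, 7.19, 7.00 and 7.33 at day 7 and at 7.42, 7.03, 6.92 and 7.17 at day 10. The lowest LF carrier array, replicate 4, still lay above all LF day 10 arrays but below the highest LF day 7 array. In FL kidneys it lay at 8.39, 8.18, 7.57 and 7.92 at day 0, at 7.06, 6.57, 7.10 and 6.70 at day 7 and at 7.78, 8.5, 7.91 and 7.30 at day 10. All FL arrays of day 7 lay below the carrier arrays, and at day 10 only replicate 4 did. In F kidneys it lay at 7.52, 7.46, 7.16 and 8.12 at day 0, at 7.56, 7.09, 7.25 and 6.94 at day 7 and at 7.59, 7.03, 6.66 and 7.09 at day 10. In L kidneys it lay at 9.01, 7.05, 7.13 and 6.46 at day 0, at 7.39, 6.59, 6.95 and 7.46 at day 7 and at 7.25, 7.30, 7.38 and 7.36 at day 10. In F and L the days overlapped, and L day 0 replicate 1 (9.01) stood far above the next carrier array of that strain (7.13).

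At day 7 Gadd45g fell in LF by 1.22 ± 0.32 (adjusted p = 0.0286), and its estimates were -1.16 ± 0.32 in FL (adjusted p = 0.253), -0.36 ± 0.32 in F (0.999) and -0.32 ± 0.32 in L (0.994). The LF day 0 arrays entered the choice of Gadd45g, which favours a fall in LF at day 7, so the LF p-value is not independent of the choice. The LF call was lost without any 1 of LF day 0 replicates 1, 2 and 3 or LF day 7 replicates 2, 3 and 4 (adjusted p of 0.0597 to 0.143), and with the array spread as a covariate (-0.90, adjusted p = 0.0827). Leaving out all arrays of replicate number 2 (adjusted p = 0.398) or 3 (0.347) also ended that call. The FL fall passed without L day 0 replicate 1 (adjusted p = 0.0183). At day 10 the differences were -1.42 in LF, -0.47 in F, -0.14 in FL and -0.09 in L, each ± 0.32. Without L day 0 replicate 1 the values in L became 0.22 at day 7 and 0.44 at day 10, so the sign at both days rests on that array.

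Among the 5 genes, Gadd45g had the highest F value for strain differences at day 0, with the limit that the LF day 0 arrays entered its choice. Choosing a gene that was lower in LF at day 10 favours high LF carrier values. The p-values of Gadd45g below are therefore no independent evidence that LF differs from the other strains. The carrier means were 8.56 ± 0.50 in LF, 8.02 ± 0.35 in FL, 7.57 ± 0.40 in F and 7.41 ± 1.11 in L (SD, n = 4 each). The F test over the 4 strains missed the threshold (F = 5.22, adjusted p = 0.0912), at a background of 3.43% of probe sets called. It passed with the replicate number as a block (F = 6.45, adjusted p = 0.0286), and without L day 0 replicate 1 (F = 14.57, adjusted p = 0.000216) or LF day 0 replicate 4 (adjusted p = 0.0303). LF was above L by 1.14 ± 0.32 (95% interval 0.50 to 1.79, adjusted p = 0.178), and by 1.68 without L day 0 replicate 1, where it passed (adjusted p = 0.000313). LF was above F by 0.99 ± 0.32 (adjusted p = 0.105). That difference passed with the block (0.044), after a second quantile normalization (0.0471), with array weights (0.0154), and without LF day 0 replicate 4 (0.0359) or L day 0 replicate 1 (0.0172). The carrier levels of Jun differed by less (F = 2.95, adjusted p = 0.399), with L above the other strains by 0.40 to 0.45. Cdkn1a, Gadd45a and Hspb1 had F values of 0.53, 0.54 and 0.61 (adjusted p of 0.927 to 0.939).

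Gadd45g was also the member whose day 7 value lay furthest from the midpoint of day 0 and day 10. Against that midpoint, a comparison that does not use the difference by which the genes were chosen, it was lower by 0.50 ± 0.14 (adjusted p = 0.06, background 1.2% of probe sets called). Of those background calls 8.49% were higher, against 38.2% with array medians subtracted, 32.5% after a second quantile normalization and 41.4% with the array spread as a covariate. Gadd45g passed in none of those rescaled or covariate fits, nor with an intensity trend and robust prior. The block brought the adjusted p to 0.0156, and it also passed without any 1 of 8 arrays: FL day 0 replicate 3, LF day 0 replicate 4, L day 0 replicates 1 and 4, FL day 10 replicate 4, F day 10 replicate 4, LF day 7 replicate 1 and F day 7 replicate 1 (adjusted p of 0.0193 to 0.0428). The other 4 genes departed from the midpoint by -0.07 (Jun), 0.07 (Gadd45a), 0.09 (Hspb1) and 0.18 (Cdkn1a), with adjusted p of 0.371 to 0.598.

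Gadd45b, the family gene that is not among the 5, gives the comparison within the family. Its level was 6.64 ± 0.15 at day 0, 6.63 ± 0.18 at day 7 and 6.66 ± 0.13 at day 10 (SD, n = 16 each). The differences from day 0 were -0.02 ± 0.055 at day 7 (adjusted p = 0.878) and 0.01 ± 0.055 at day 10 (adjusted p = 0.995). The 3 family genes thus had a called rise, a called fall and no call at day 7. Gadd45a was chosen for a rise at day 10 and Gadd45g for a fall in LF, against the same day 0 arrays. That choice favours this contrast, which is therefore no test of the family.

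Jun had no call in any strain at day 7, and its arrays separated from the carrier arrays on different days in different strains. In F kidneys Jun lay at 6.80, 7.07, 6.97 and 7.14 at day 0, at 7.40, 7.40, 7.49 and 7.45 at day 7 and at 7.52, 6.99, 7.20 and 7.01 at day 10. The 4 F arrays of day 7 lay between 7.40 and 7.49, all above day 0, and the day 10 arrays overlapped the carrier arrays. In FL kidneys it lay at 7.29, 6.74, 6.93 and 7.19 at day 0, at 7.18, 7.12, 7.08 and 7.10 at day 7 and at 7.56, 7.38, 7.95 and 7.67 at day 10. In LF kidneys it lay at 6.95, 7.12, 7.05 and 7.05 at day 0, at 7.46, 7.10, 6.64 and 7.23 at day 7 and at 8.04, 7.51, 7.56 and 7.90 at day 10. In FL and LF the order was different, since day 7 overlapped day 0 and all day 10 arrays lay above it. In L kidneys it lay at 7.60, 7.73, 7.36 and 7.09 at day 0, at 7.54, 6.68, 7.14 and 7.87 at day 7 and at 7.43, 7.25, 7.56 and 7.46 at day 10. The L days overlapped, and L day 7 spread from 6.68 to 7.87.

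The day 7 difference of Jun was 0.44 ± 0.17 in F (adjusted p = 0.488), 0.08 in FL, 0.07 in LF and -0.14 in L. At day 10 it was 0.60 ± 0.17 in FL, 0.71 ± 0.17 in LF, 0.19 ± 0.17 in F and -0.02 ± 0.17 in L. The difference between the strains in the day 10 response gave F = 3.92 with an unadjusted p of 0.0152 and an adjusted p of 0.849, at a background of 0.0227% of probe sets called. LF against L was 0.73 ± 0.25 (95% interval 0.23 to 1.23, adjusted p = 0.715). None of the 5 genes passed the F test for strain differences in the day 7 response, and of the 4 tested for the day 10 response, all but Gadd45g, none passed.

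Hspb1 rose at day 7 in F. In F kidneys Hspb1 lay at 7.5, 7.48, 7.40 and 7.40 at day 0, at 8.26, 7.87, 8.15 and 8.44 at day 7 and at 7.95, 7.80, 7.92 and 8.10 at day 10. All 8 treated F arrays exceeded the 4 carrier arrays, which spanned 7.40 to 7.5. In LF kidneys it lay at 7.34, 7.63, 7.64 and 7.30 at day 0, at 7.84, 8.21, 7.54 and 7.68 at day 7 and at 8.12, 8.26, 7.92 and 8.08 at day 10. In LF, day 7 overlapped day 0 and day 10 stood above it. In FL kidneys it lay at 7.56, 7.52, 7.25 and 7.19 at day 0, at 7.21, 7.23, 7.5 and 7.41 at day 7 and at 7.64, 8.03, 7.73 and 7.37 at day 10. In L kidneys it lay at 7.61, 7.49, 7.73 and 7.40 at day 0, at 7.5, 7.48, 7.63 and 7.70 at day 7 and at 7.90, 7.45, 7.43 and 7.42 at day 10. The FL and L groups overlapped, and L day 10 replicate 1 was 0.45 above the other L arrays of that day.

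In F the day 7 rise of Hspb1 was 0.74 ± 0.13 (1.66-fold, adjusted p = 0.00171). The F call held without each single array and was lost without replicate number 4 (adjusted p = 0.0808). The estimates were 0.34 ± 0.13 in LF (adjusted p = 0.158), 0.02 ± 0.13 in L (0.994) and -0.04 ± 0.13 in FL (0.967). In LF it passed once array medians were subtracted (0.46, adjusted p = 0.0344) or after a second quantile normalization (0.50, adjusted p = 0.0252). For the difference between the strains in the day 7 response its F value was the highest of the 5 genes (F = 7.15, unadjusted p = 0.000599) and missed the threshold after adjustment (adjusted p = 0.148, background 0.125% called). FL against F gave -0.78 ± 0.19 (95% interval -1.16 to -0.40, adjusted p = 0.133) and F against L gave 0.72 ± 0.19 (95% interval 0.33 to 1.10, adjusted p = 0.438). At day 10 the differences from the carrier were 0.62 in LF, 0.50 in F, 0.31 in FL and -0.01 in L, each ± 0.13, and the strain difference gave F = 4.17 (adjusted p = 0.788).

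Separation from the carrier arrays sums up the strains. At day 7, F had 2 genes with all 4 arrays outside the range of the 4 carrier arrays (Jun and Hspb1, above), LF 2 (Cdkn1a and Gadd45a, above), FL 1 (Gadd45g, below) and L 0. Among all probe sets the groups did not overlap for 5.68% in F, 8.73% in LF, 3.38% in FL and 1.94% in L. At day 10, LF had all 5 genes apart from the carrier arrays, F 2 (Cdkn1a and Hspb1), FL 2 (Cdkn1a and Jun) and L 0. The background at day 10 was 5.16% in LF, 4.84% in F, 1.63% in FL and 2.33% in L, and since the genes were picked on day 10, nothing is read from those counts. A count of 0 of 5 in L at day 7 is near its background, and all day 7 counts use carrier arrays that entered the choice. The L estimates at day 7 ran from -0.32 (Gadd45g) to 0.38 (Cdkn1a), and none passed the test. Both ends rest on 1 carrier array, since Gadd45g became 0.22 without L day 0 replicate 1 and Cdkn1a 0.13 without L day 0 replicate 4.

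Array names in the labels share 1 stem within each replicate number, whose meaning is not stated, and the direction of the differences was compared within them. Cdkn1a at day 7 was above day 0 in the mean of the 4 strains within all 4 numbers, by 0.25 to 0.95. Gadd45a was above by 0.02 to 0.39 and Hspb1 by 0.17 to 0.49, each within 4 of 4 numbers. Gadd45g was below within 4 of 4 numbers, by differences of -1.03 to -0.47. Jun ran from -0.09 to 0.30, above day 0 within 3 of 4 numbers. The day 0 arrays in these differences entered the choice of the genes, which favours the chosen directions. The share of all probe sets with 1 direction within every number was not worked out.

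**Figure D3:**
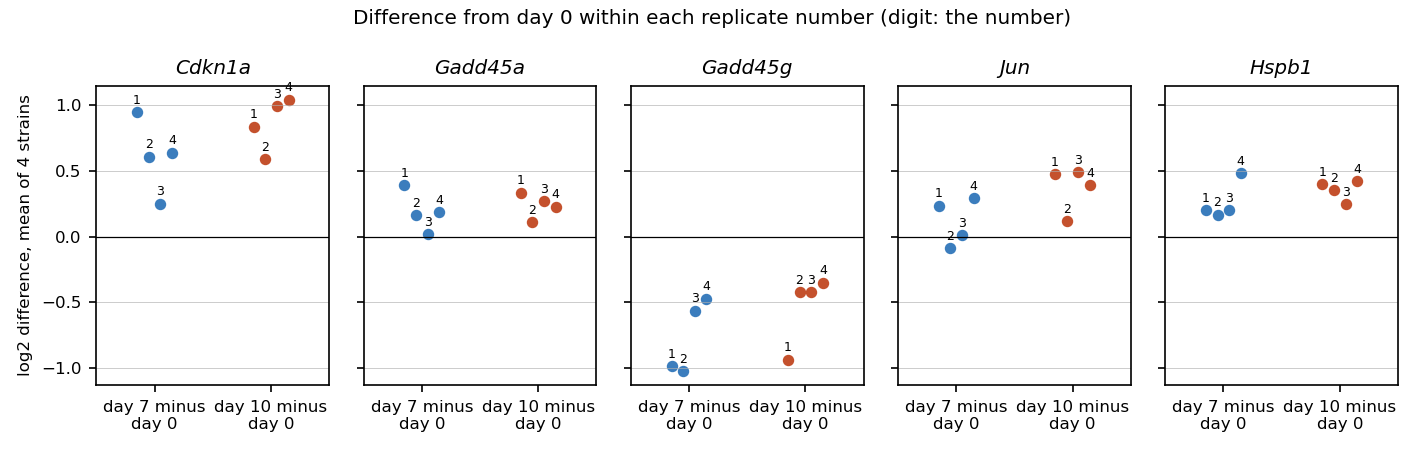
Log2 difference from day 0 in the mean of the 4 strains (y axis) for each replicate number, marked by its digit, at day 7 and at day 10 (x axis). Cdkn1a runs from 0.25 to 0.95 at day 7 and Gadd45g from -1.03 to -0.47, and Jun is below 0 for number 2 at day 7.

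Calls among the other listed genes of these pathways were few, as they were among all probe sets (1.19% higher and 3.75% lower at day 7, 1.26% and 1.15% at day 10). Of 46 listed p53 targets besides the members, 16 were measured, and limma called 0 of them at day 7 and 0 at day 10. Mdm2 and Btg2 were among the listed targets that were not measured. At an unadjusted p under 0.05 there were 1 higher and 4 lower at day 7, and 1 higher and 0 lower at day 10. Their median difference was -0.031 at day 7 and 0.0044 at day 10, beside -0.029 and -0.0031 over all probe sets. Bax, the pro-death p53 target, was at 0.10 ± 0.11 at day 7 (adjusted p = 0.63) and at 0.20 ± 0.11 at day 10 (0.592). Ccng1, a cyclin directly induced by p53, was at 0.05 ± 0.056 and 0.11 ± 0.056 (adjusted p of 0.626 and 0.597). Fas, a death receptor, was at 0.11 ± 0.051 at day 10 (0.442), and Casp1 at -0.31 ± 0.10 at day 7 (0.0635). These counts moved both ways with the fit. With the block Casp1 (adjusted p = 0.0301) and Mdm4, an inhibitor of p53 (-0.26, adjusted p = 0.0489), were called lower at day 7, as they were with array weights. With the array spread as a covariate 2 targets were called higher at day 7, among them Ccng1 (0.13, adjusted p = 0.0465), and none lower.

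Of 22 measured growth arrest genes, 2 rose at each day and 0 fell (at an unadjusted p under 0.05, 3 were higher and 4 lower at day 7, and 4 higher and 1 lower at day 10), with medians of -0.0050 at day 7 and 0.015 at day 10. Ndrg1, a stress and hypoxia gene, rose by 0.35 ± 0.047 at day 7 (adjusted p = 5.07e-06) and by 0.24 ± 0.047 at day 10 (0.000957). Btg1, an antiproliferative gene, rose by 0.18 ± 0.046 at day 7 (0.0133), and Klf6, a zinc finger factor induced by injury, by 0.41 ± 0.11 at day 10 (0.0302). Of 52 fits with arrays left out, the Btg1 call was lost in 3, the Klf6 call in 11 and the Ndrg1 calls in 0. Cdkn1c, the p57 kinase inhibitor related to Cdkn1a, was at -0.17 ± 0.054 at day 10 (0.0939).

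Of 30 measured AP-1 and immediate early genes, 1 rose and 1 fell at day 7, and 2 rose at day 10, with medians of -0.00031 and 0.039. Atf3, a stress factor that pairs with Jun, rose by 0.38 ± 0.11 at day 7 (adjusted p = 0.0343) and by 0.45 ± 0.11 at day 10 (0.013). Its day 7 call was lost in 12 of 52 fits with arrays left out and with array weights, and its day 10 call in 3. Jdp2, a repressor that also pairs with Jun, fell by 0.28 ± 0.085 at day 7 (0.046). That call was lost in all 3 fits that rescaled the arrays or took their spread as a covariate (adjusted p = 0.108 with array medians subtracted), and in 29 of 52 fits with arrays left out. Myc, the growth factor-induced transcription factor, rose by 0.35 ± 0.093 at day 10 (0.0302), a call lost in 9 of those 52 fits. The Jun relatives gave no call at either day, with Junb at -0.04 ± 0.11 at day 7 and 0.11 ± 0.11 at day 10, and Jund at 0.08 ± 0.060 and 0.04 ± 0.060.

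Of 18 measured heat shock genes, 0 rose and 1 fell at each day, with medians of -0.055 and 0.029 (at an unadjusted p under 0.05, 1 higher and 3 lower at day 7, 1 and 1 at day 10). Bag3, a co-chaperone, was at 0.13 ± 0.062 at day 7 (adjusted p = 0.24) and was called higher with array medians subtracted (0.18, adjusted p = 0.0248), a second quantile normalization (0.20, 0.0143) or the array spread as a covariate (0.19, 0.0303), and with array weights 3 genes were called lower. Hsf2, a heat shock transcription factor, fell by 0.40 ± 0.11 at day 7 (adjusted p = 0.0357), a call lost in 14 of 52 fits with arrays left out. Hspb2, a small heat shock protein of muscle, fell by 0.32 ± 0.093 at day 10 (0.049), a call lost in 38 of those fits and with array weights. Hspb8 and Cryab, other small heat shock proteins, were at 0.09 ± 0.077 and -0.06 ± 0.055 at day 7, and at 0.06 ± 0.077 and -0.09 ± 0.055 at day 10, without a call. Of 18 proliferation genes, 0 rose and 1 fell at each day, with medians of -0.052 and 0.0084 (unadjusted, 1 higher and 4 lower at day 7, 0 and 2 at day 10). It was Ccnd1, cyclin D1, the partner of the kinases that p21 restrains, with a fall at day 7 (-0.65 ± 0.089, adjusted p = 6.17e-06) and at day 10 (-0.58 ± 0.089, adjusted p = 3.56e-05). Mean levels of the proliferation genes at day 0 ran from 2.99 (Cdk1) to 9.77 (Ccnd1). In the dimmest of them a fall could go unseen.

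**Figure D4:**
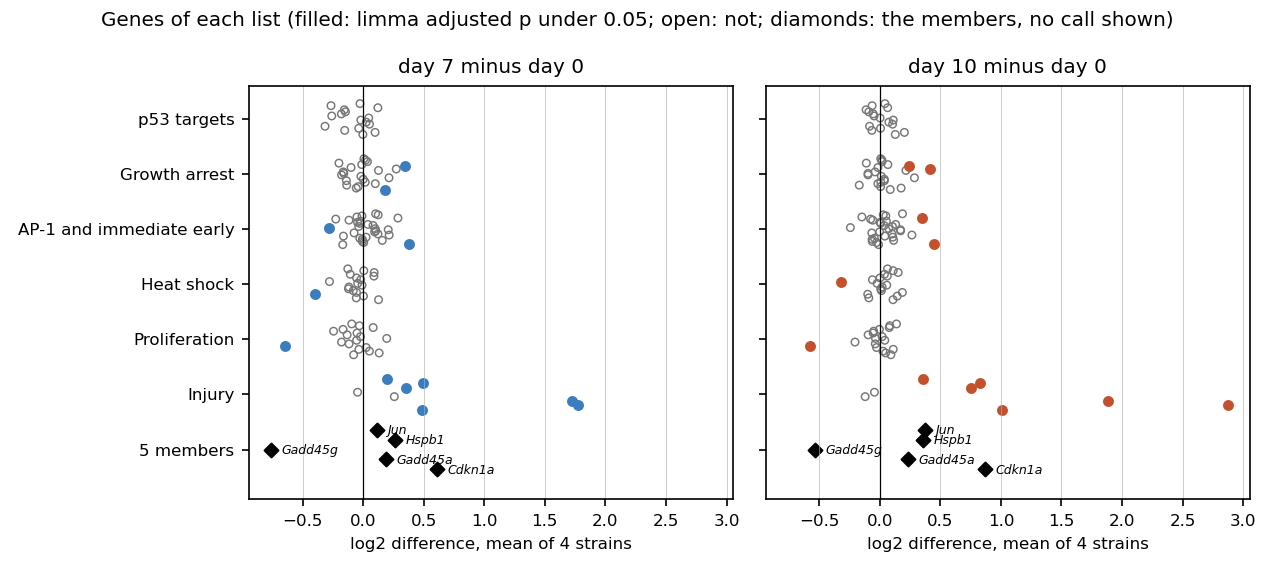
Log2 difference from day 0 in the mean of the 4 strains (x axis) at day 7 and at day 10 for every measured gene of 6 lists and for the 5 members (y axis); filled circles passed the limma threshold, open circles did not, and diamonds are the members, whose calls are not drawn. The p53 targets are drawn as open circles at both days, and the injury list reaches 1.77 at day 7 and 2.87 at day 10 (Havcr1).

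Kidney injury genes rose with Cdkn1a, Gadd45a and Hspb1, and their part in those results was not tested. Of 8 measured injury genes, 6 rose at day 7 and 6 at day 10, beside 1.19% and 1.26% of all probe sets called higher. With arrays left out, 2 to 6 were called higher at day 7 and 5 to 6 at day 10. Havcr1, shed by damaged proximal tubules, rose by 1.77 ± 0.27 at day 7 and by 2.87 ± 0.27 at day 10, and Clu, a stress chaperone, by 0.49 ± 0.11 and 1.01 ± 0.11. The mean log2 level over the list lay at 5.83 to 6.43 on the carrier arrays of all strains. At day 7 it lay at 7.06 to 8.04 in LF, 6.78 to 7.29 in F, 5.98 to 6.50 in FL and 6.01 to 6.24 in L. At day 10 it lay at 7.40 to 7.77 in LF, 6.71 to 7.44 in F, 6.27 to 7.5 in FL and 6.11 to 6.99 in L. The list was thus above all carrier arrays at day 7 in LF and F, and overlapped them in FL and L. The list was written with earlier results of these data known. Over the 12 group means, which share arrays and carrier groups, the correlation with Havcr1 was 0.88 for Hspb1, 0.85 for Cdkn1a, 0.75 for Gadd45a, 0.58 for Jun and -0.42 for Gadd45g. With Clu, Hmox1 and Lcn2, in that order, it was 0.87, 0.68 and 0.40 for Hspb1, 0.70, 0.81 and 0.36 for Cdkn1a, and 0.75, 0.69 and 0.72 for Gadd45a. For Jun it was 0.67, 0.18 and 0.45, and for Gadd45g -0.40, -0.25 and -0.175. The members were chosen on day 10 differences, and injury genes such as Havcr1 and Clu rose at day 10. The signs of these correlations thus follow in part from the choice.

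Markers of cell types also moved. Over all probe sets, 3.75% were called lower and 1.19% higher at day 7, and 1.15% and 1.26% at day 10. Of 7 markers of the loop and distal tubule, 5 fell at day 7 and 4 at day 10, and their mean log2 level was 9.04 to 9.48 at day 0, 8.61 to 9.08 at day 7 and 8.61 to 9.37 at day 10. Of 6 collecting duct markers, 4 fell at day 7 and 3 at day 10, with a mean level of 8.00 to 8.67 at day 0, 7.83 to 8.41 at day 7 and 7.74 to 8.48 at day 10. Of 6 smooth muscle, pericyte and fibroblast markers, 2 rose at day 7 and 4 at day 10, with a mean level of 6.01 to 6.6 at day 0, 6.30 to 6.92 at day 7 and 6.32 to 6.79 at day 10. Of 6 macrophage markers, 2 fell at day 7 and 0 were called at day 10 (1 higher and 1 lower at an unadjusted p under 0.05), with a mean level of 5.77 to 6.48 at day 0, 5.69 to 6.21 at day 7 and 5.55 to 6.40 at day 10. Of 5 podocyte markers 1 fell at day 7 and 0 at day 10, of 2 endothelial markers 2 fell at day 7 and 0 at day 10, and of 5 T and B cell markers 1 fell at each day. No erythroid marker was measured. Falls called at day 7 with arrays left out numbered 2 to 5 for the loop and distal tubule, 2 to 5 for the collecting duct and 0 to 3 for macrophages. Endothelial falls then numbered 1 to 2, and smooth muscle, pericyte and fibroblast rises 2 to 3. Markers of the proximal tubule, the main tissue of the kidney cortex, were high throughout, at 11.16 to 11.54 at day 0, 11.20 to 11.48 at day 7 and 11.14 to 11.47 at day 10 in the mean of 11 genes, of which 2 fell at day 7 and 0 were called at day 10. In the 7 other ways to fit or scale the arrays, 0 to 2 proximal tubule markers were called higher and 0 to 3 lower at day 7. The 2 granulocyte markers had no call, and S100a8, a defining one, averaged 1.99 at day 0, near the lowest values of the arrays (1.04). The array spread, the SD over probe sets of an array, averaged 2.45 at day 0, 2.41 at day 7 and 2.45 at day 10. The part of the marker shifts in the results was not tested. The fit with the array spread as a covariate took in that spread alone and no marker level.

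Among themselves, Cdkn1a and Gadd45a followed each other most closely over the 12 group means (Pearson r = 0.82), then Cdkn1a and Hspb1 (0.71) and Gadd45a and Hspb1 (0.64). Jun had r of 0.49 to 0.59 with these 3, and Gadd45g was negative with all of the others, at -0.37 to -0.27. These values describe 12 group means. Cdkn1a, Gadd45a, Jun and Hspb1 were chosen for rises at day 10 and Gadd45g for a fall in LF. That choice favours the signs given here, positive and negative. Of 7584 genes, those with the pattern most like Cdkn1a were Rasd1 (r = 0.91), Pla2g2a (0.89) and Pvr (0.88), and over the 48 arrays the r values were 0.64, 0.35 and 0.79. For Gadd45a they were Sult1a1 (0.91), Ckmt1 (0.90) and Stard10 (0.90), with 0.74, 0.67 and 0.57 over arrays. For Gadd45g they were Adarb1 (0.88), Bhlhe41 (0.84) and Slc25a29 (0.83), with 0.62, 0.65 and 0.45. For Jun they were Tubb5 (0.87), Rack1 (0.86) and Dynlt1 (0.85), with 0.57, 0.02 and 0.61, so the likeness to Rack1 was present in group means and near 0 over arrays. For Hspb1 they were Atf3 (0.94), Pvr (0.92) and Klf6 (0.92), with 0.65, 0.72 and 0.65, and over the 48 arrays Clu (0.76), Tnfrsf12a (0.75) and Havcr1 (0.74) came first.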

How the data were processed

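Total RNA of rat kidney was hybridised to 48 whole-transcript arrays, 4 per group. Per the labels' protocols, Trizol extracts were DNase treated and cleaned on columns, and sense targets were labelled with biotin after depletion of ribosomal RNA. RMA and limma are named in the submitters' processing notes, with neither version nor role. The deposited table holds log2 signals made by the authors, 1 value per probe set and array, with 8797 probe sets, 0 missing values, a range of 1.04 to 14.02 and array medians of 5.66 to 6.06, so levels compared across arrays rest on the authors' normalization. The build and any probe set filter are not given in the sources used here. Arrays give no read depth, and their number limits the precision.

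Groups came from the labels. The platform annotation gave 1 gene symbol for 7603 probe sets, several for 409 and none for 785, and 7584 were matched to the rat RefSeq table by Entrez identifier. Promoter sequences are RefSeq's, build GRCr8. In limma 3.58.1 (R 4.3.3), a linear model with 1 mean for each group used all 48 arrays, with 36 residual degrees of freedom. Contrasts, and F tests with 3 numerator degrees of freedom, had their p-values adjusted across the 8797 probe sets (Benjamini-Hochberg, threshold 0.05). The members and lists were chosen with earlier results of these data known. Named genes were the members, up to 4 genes of each pathway list with the smallest p at each day, and Mdm2, Ccng1, Bax, Btg2, Gadd45b, Fos, Junb, Jund, Atf3, Hspb8 and Cryab where measured, of which the text gives those that bear on the members, and the 3 genes most like each member over the 12 group means. S100a8 and the 3 genes most like Hspb1 over the 48 arrays were singled out after their values were seen. Lists were described by counts, with no set test, and the script was tested on simulated data.

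Array names in the labels share 1 stem within each replicate number (12 arrays each), whose meaning is not stated, and the number was fitted as a block in an alternative. Deviations from the group means correlated at 0.0942 on average between arrays of the same number (0.136, 0.0437, 0.008 and 0.1891 for numbers 1 to 4, with 108 of 264 pairs above 0.1) and at -0.0314 between numbers, and 29 of 48 arrays correlated best with an array of their own number. The other alternatives subtracted array medians, repeated the quantile normalization, took the array spread as a covariate, weighted arrays, left out the dimmest probe sets, used an intensity trend with a robust prior, left out each number or array, or used the arrays of 1 strain alone.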

Additional observations from a re-analysis of the deposited data

Results flagged for a closer look

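In 4 of 60 groups of 4 arrays (5 genes in 12 groups) the highest or lowest array stood further from its neighbour than the 95% critical value of Dixon's test for 4 values allows. Chance gives about 1 in 20 such groups, so 4 in 60 is close to what chance gives. Cdkn1a was high on 1 FL array at day 0, at 5.61 beside 5.46. Gadd45a was low on 1 LF array at day 10, at 9.28 beside 9.45, and this array still lay above the LF carrier arrays. Gadd45g was low on 1 LF array at day 0, at 7.82 beside 8.69. Without it (LF day 0 replicate 4) the strain differences at day 0 passed the threshold for Gadd45g (adjusted p = 0.0303), whose choice used the LF day 0 arrays. Hspb1 was high on 1 L array at day 10, at 7.90 beside 7.45, in the strain where this gene was at -0.01 ± 0.13 against day 0.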

How the results depend on the processing

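The alternatives were 7 other ways to fit or scale the arrays, 4 fits without 1 replicate number and 48 without 1 array. Fits on the arrays of each strain alone at day 7 were also run, and their values are not given here. The calls within a strain thus rest on a spread shared by all 12 groups. The 4 calls averaged over the strains at day 7 (Cdkn1a, Gadd45a, Gadd45g and Hspb1) kept their direction in the 7 other fits and in the 52 with arrays left out, and their call in those 7. With arrays left out, the day 7 difference ranged from 0.50 to 0.73 for Cdkn1a, from 0.12 to 0.25 for Gadd45a, from -0.86 to -0.63 for Gadd45g and from 0.19 to 0.30 for Hspb1. Same-numbered arrays share an array-name stem, and whether the numbers pair the samples is not stated. With the replicate block, Gadd45g passed against the midpoint (-0.50, adjusted p = 0.0156) and for strain differences at day 0 (F = 6.445), Gadd45a in LF at day 7 and LF against F for Gadd45g at day 0, and the block changed no other member call. Among the listed genes it added day 7 calls for Casp1, Mdm4, Gas6, Myc, Mapk9, Hspb2 and Mcm7.

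Against the midpoint, Gadd45g also passed with array weights (-0.52) and without the dimmest probe sets (-0.495), and ranged from -0.56 to -0.39 with arrays left out. Gadd45g did not pass there with medians subtracted, a second quantile normalization, the array spread as a covariate or an intensity trend and robust prior. For strain differences at day 0 it passed with medians subtracted (F = 6.113), a second quantile normalization (6.41), the array spread as a covariate (6.47) and array weights (6.36), and its F ranged from 2.25 to 14.57 with arrays left out. Jun passed there with array weights (F = 5.325), which also gave it calls for F and FL against L at day 0 (adjusted p of 0.0394 and 0.0482). The cause of these changes was not tested, and the LF day 0 arrays had entered the choice of Gadd45g.

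Counts of probe sets called also moved. At day 7 averaged over the strains, 435 became 976 with the block, 1128 with array weights and 99 to 720 with arrays left out. Against the midpoint, 106 became 809 with the block, 178 with medians subtracted, 240 with a second quantile normalization, 920 with array weights and 18 to 609 with arrays left out. At day 10, 212 became 357 with medians subtracted, 407 with a second quantile normalization, 508 with the array spread as a covariate and 91 to 245 with arrays left out. For strain differences at day 0, 302 became 478, 487, 570, 653 and 671 with the block, medians subtracted, a second quantile normalization, the array spread as a covariate and array weights, and 122 to 358 with arrays left out. For the day 7 response, 11 became 28, 30, 40, 48 and 28 under the same 5 settings and 0 to 20 with arrays left out. For the day 10 response, 2 became 10, 9, 13, 17 and 14 under the same settings, 4 with an intensity trend and robust prior, and 1 to 7 with arrays left out.

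Limits: 4 arrays per group leave a standard error of 0.11 (Gadd45a) to 0.32 (Gadd45g) log2 on a strain's own difference. Changes well above 1 standard error could go uncalled in 1 strain. An example is Gadd45g in FL at day 7 (-1.16 ± 0.32, limma adjusted p = 0.253). Which arrays hold the same rats is not given, and the day 7 and day 10 differences share their carrier arrays.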
